A study of Ovis aries with 12 samples.

Results

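Pre-mRNA splicing genes were followed through 12 libraries of bulk RNA-seq from sheep embryos (Ovis aries). The group consisted of core spliceosome and SR protein genes, taken by symbol from 5 families: SNRP, LSM, SF3A and SF3B, PRPF, and SRSF. The symbols picked 43 of the 26247 genes in the deposited table: 8 SNRP genes, 10 LSM genes, 7 SF3 genes, 11 PRPF genes and 7 SRSF genes. All 43 passed the filter on low values (at least 1 FPKM in at least 3 libraries), and a member had between 69 and 53950 counts in a library. The choice used symbols and no measured value, though it was made with earlier results of these data known. It also took LSM1, LSM10 and LSM14B, whose roles outside the spliceosome are given below.

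The embryos came from Hulunbuir short-tail sheep, the breed under test, and from Ujumqin sheep, the controls, both Mongolian sheep. There were 4 groups of 3 libraries: Hulunbuir embryos at day 25, Ujumqin embryos at day 25, Hulunbuir embryos at day 16 and Ujumqin embryos at day 16. All embryos had been dissociated enzymatically before RNA was isolated with TRIzol, and the labels name no transgene or treatment in any group. The descriptions give 3 samples per group and do not say whether a library holds 1 embryo or several, so the p-values rest on the spread among these libraries, which may be technical.

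The spliceosome removes introns from nuclear transcripts. It is built from small nuclear ribonucleoproteins (snRNPs), in which a small nuclear RNA sits in a ring of Sm or LSM proteins. U1 binds the 5′ splice site, and U2, with the SF3A and SF3B complexes, binds the branch point. The tri-snRNP of U4, U6 and U5 then joins and brings the PRPF proteins of the catalytic core. SR proteins bind exons through RNA recognition domains and recruit these parts, and their amount changes which exons are kept. In animals loss of core spliceosome proteins often affects neural crest and craniofacial development.

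Gene counts totalled 30464606 to 55455815 per library. The members took 0.665% to 0.679% of the counts in Hulunbuir day 25 libraries, 0.666% to 0.689% in Ujumqin day 25 libraries, 0.482% to 0.684% in Hulunbuir day 16 libraries and 0.434% to 0.498% in Ujumqin day 16 libraries. The day 16 libraries varied more: the biological coefficient of variation over genes was 18.1% among the day 25 libraries and 43.8% among those of day 16. Breeds were therefore compared within the 6 libraries of 1 age, and ages and the breed by age interaction in 1 fit over 12 libraries. Markers of other tissues moved with the groups. Over 18 erythroid genes the summed level was 16864 to 19731 FPKM in Hulunbuir day 25 libraries and 2071 to 2588 FPKM in Ujumqin day 25 libraries, and 107 to 213 FPKM in Hulunbuir day 16 libraries and 1005 to 4415 FPKM in Ujumqin day 16 libraries. Over 24 yolk sac, endoderm and liver genes it was 22347 to 23989 FPKM in Hulunbuir day 25 libraries and 6679 to 10150.0 FPKM in Ujumqin day 25 libraries, and 5533 to 17369 FPKM in Hulunbuir day 16 libraries and 28991 to 66149.9 FPKM in Ujumqin day 16 libraries. None of these erythroid or yolk sac and liver genes was at 0 in all 3 libraries of a group. Over 13 trophoblast genes the sum was 369.8 to 408 FPKM and 329.8 to 599 FPKM in Hulunbuir and Ujumqin day 25 libraries, and 1733 to 5624 FPKM and 1837 to 3965 FPKM in Hulunbuir and Ujumqin day 16 libraries. PAG6 alone was at 0 among them, in both Hulunbuir groups. Over 14 neural genes it was 1009 to 1037 FPKM in Hulunbuir and 575 to 655 FPKM in Ujumqin at day 25, and 96.1 to 371 FPKM in Hulunbuir and 42.3 to 114 FPKM in Ujumqin at day 16. Over 13 heart and skeletal muscle genes it was 1025 to 1144 FPKM in Hulunbuir and 666 to 874 FPKM in Ujumqin at day 25, and 1075 to 2484 FPKM in Hulunbuir and 216 to 489.6 FPKM in Ujumqin at day 16, with MYOG and MYOD1 at 0 at day 16 in 1 breed each. Sums over 15 leukocyte genes stayed between 12.2 and 112 FPKM in the 4 groups, with MS4A1 at 0 in 3 of them. Sums over 11 endometrial genes were 548 to 587 FPKM in Hulunbuir and 519.7 to 657 FPKM in Ujumqin at day 25. At day 16 they were 516 to 892 FPKM in Hulunbuir and 458 to 2749 FPKM in Ujumqin. Of the 11 genes 8 or 9 had counts in all 3 libraries of a group. The progesterone receptor gene PGR was at 0 in every group. The part of these tissues in the results below was not tested. In bulk RNA, fewer cells of a type and less RNA per cell cannot be told apart.

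Levels are given as deposited FPKM (fragments scaled by gene length and library size), which compare libraries on their total counts. Log2 changes come from edgeR's quasi-likelihood test on counts with TMM scaling, which sets the bulk of the genes equal, and are given with their standard error (SE) and an adjusted p over all genes (Benjamini-Hochberg, two-sided, called under 0.05). The 2 scales differ. On total counts the median of all genes was 0.352 on the log2 scale for Hulunbuir over Ujumqin at day 25, against 0.030 with TMM, and the interaction moved likewise, 0.250 against -0.032. For day 25 over day 16 it was 0.136 on total counts and -0.042 with TMM in Hulunbuir embryos, and -0.163 and -0.065 in Ujumqin embryos. For the breeds at day 25, members called on both scales are therefore named first. For the age changes and the interaction, the number of member calls that held on both scales is given, and the order of genes does not follow the scale.

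Among the members, the SR protein gene SRSF3 and the Sm ring genes SNRPB and SNRPF had the highest mean FPKM over the 12 libraries. SRSF3 had 539, 543 and 555 FPKM in Hulunbuir day 25 libraries, 587, 549 and 518 FPKM in Ujumqin day 25 libraries, 475, 309 and 607 FPKM in Hulunbuir day 16 libraries and 363, 338 and 406 FPKM in Ujumqin day 16 libraries. SNRPB had 407, 458 and 427 FPKM in Hulunbuir day 25 libraries, 379, 428 and 401 FPKM in Ujumqin day 25 libraries, 352, 218 and 344 FPKM in Hulunbuir day 16 libraries and 271, 231 and 262 FPKM in Ujumqin day 16 libraries. The SRSF3 protein binds exons and escorts spliced mRNA to the cytoplasm, and SNRPB encodes the B protein of the Sm ring. For SNRPB every day 25 library was above every day 16 library, while for SRSF3 the highest value, 607 FPKM, was in a Hulunbuir day 16 library.

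The lowest mean FPKM, which divide by gene length, were those of SRSF12, LSM10 and SNRPB2, the last with 1457 to 4225 counts per library. SRSF12 had 8.14, 6.99 and 3.99 FPKM in Hulunbuir day 25 libraries, 8.03, 8.26 and 8.5 FPKM in Ujumqin day 25 libraries, 1.98, 2.55 and 4.64 FPKM in Hulunbuir day 16 libraries and 4.24, 2.12 and 2.8 FPKM in Ujumqin day 16 libraries. LSM10 had 18.8, 20.6 and 20.3 FPKM in Hulunbuir day 25 libraries, 14.9, 18.5 and 12.3 FPKM in Ujumqin day 25 libraries, 7.69, 8.47 and 7.97 FPKM in Hulunbuir day 16 libraries and 9.52, 9.46 and 8.48 FPKM in Ujumqin day 16 libraries. SRSF12 is an SR protein, and LSM10 replaces an Sm protein in the U7 particle that cuts histone transcripts. LSM10 was higher in every day 25 library than in every day 16 library, and so was SRSF12 apart from 1 Hulunbuir day 25 library at 3.99 FPKM. SNRPN, which encodes a near copy of the SNRPB protein, stood at 9.69% to 18.2% of the SNRPB level in the 12 libraries. Reads of the 2 genes can be shared by near-identical sequence, so values of each are uncertain where the authors' counting could split them.

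Summed by family, the SNRP genes reached 1675 to 1761 FPKM in Hulunbuir day 25 libraries, 1961 to 2215 FPKM in Ujumqin day 25 libraries, 872 to 1269 FPKM in Hulunbuir day 16 libraries and 904 to 1018 FPKM in Ujumqin day 16 libraries. The LSM genes reached 996 to 1011 FPKM, 1279 to 1354 FPKM, 536 to 742 FPKM and 569 to 644 FPKM in the same 4 groups. In both families the 2 breeds were apart at day 25 and overlapped at day 16. The PRPF sums had no such step with age: they were 434 to 441 FPKM in Hulunbuir day 25 libraries, 363 to 396 FPKM in Ujumqin day 25 libraries, 386 to 517 FPKM in Hulunbuir day 16 libraries and 315 to 389.6 FPKM in Ujumqin day 16 libraries. The SF3 sums were 838 to 876 FPKM in Hulunbuir day 25 libraries, 898 to 933 FPKM in Ujumqin day 25 libraries, 616 to 854 FPKM in Hulunbuir day 16 libraries and 613 to 679 FPKM in Ujumqin day 16 libraries. The SRSF sums were 1323 to 1361 FPKM in Hulunbuir day 25 libraries, 1211 to 1377 FPKM in Ujumqin day 25 libraries, 780.2 to 1323 FPKM in Hulunbuir day 16 libraries and 772 to 927 FPKM in Ujumqin day 16 libraries.

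**Figure D1:**
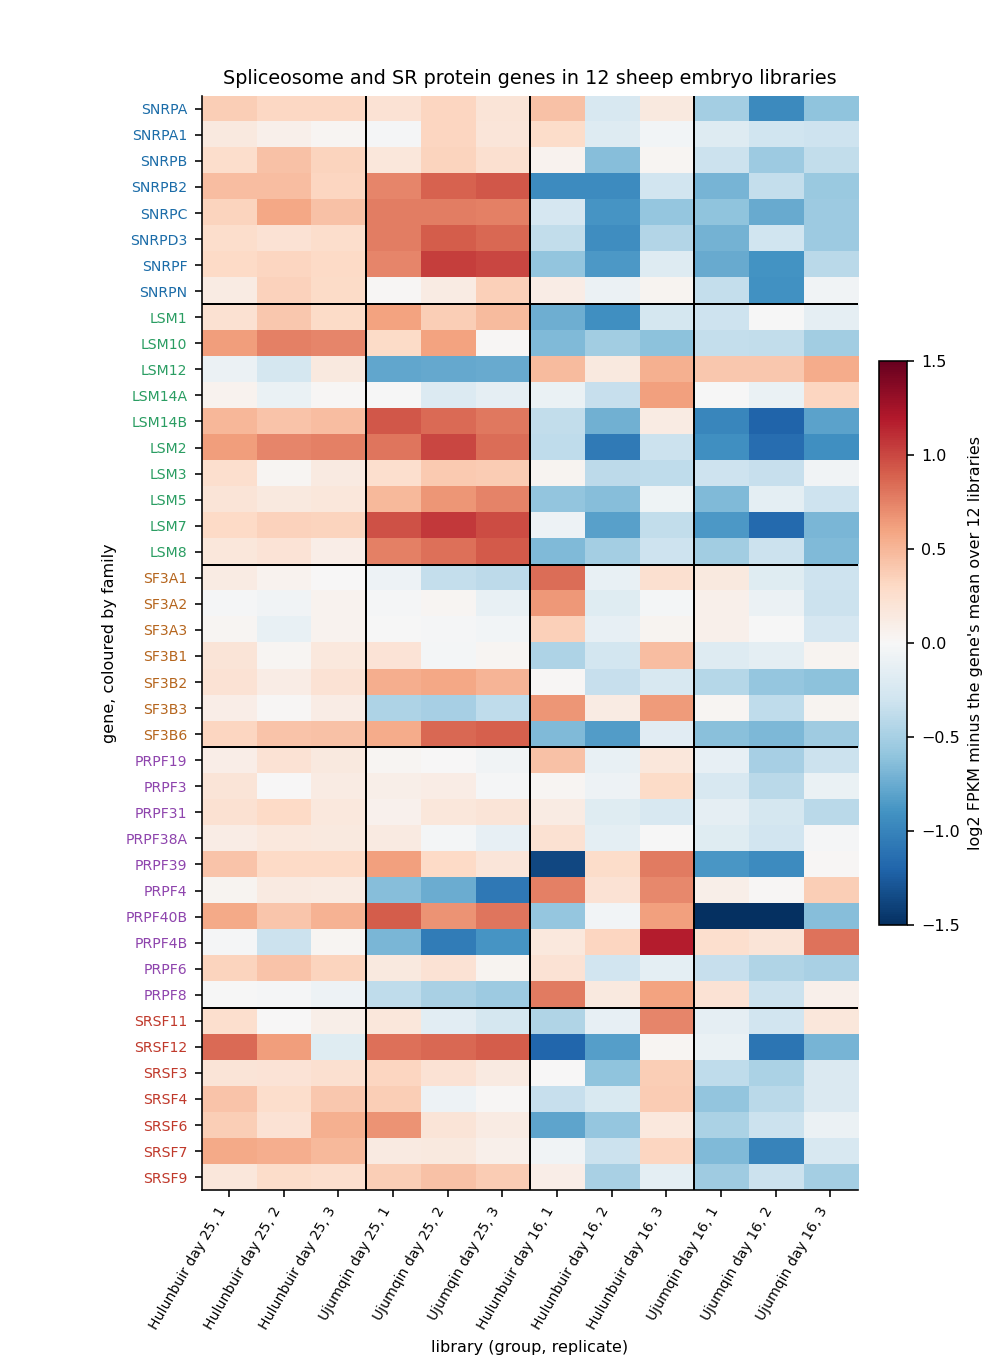
Level of each gene shown (rows, label colour by family) in each of the 12 libraries (columns), as log2 FPKM minus the mean of that gene over the 12 libraries; colours are cut off at 1.5 on either side. The SNRP and LSM rows are mostly red at day 25, more so in Ujumqin columns, and blue at day 16, whereas PRPF4, PRPF4B and LSM12 run the other way.

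The first comparison asks how the members differ between day 25 and day 16 in each breed. In Hulunbuir embryos 12 of 43 members were called higher at day 25 than at day 16 and 6 lower, and in Ujumqin embryos 30 were called higher and 4 lower. Over all genes tested, 18.9% were called higher and 21.6% lower in Hulunbuir embryos, and 30.7% higher and 32.9% lower in Ujumqin embryos. The members' median log2 change was 0.197 in Hulunbuir embryos, where that of all genes was -0.042, and 0.728 in Ujumqin embryos, where that of all genes was -0.065. All 12 members called higher in Hulunbuir embryos were among the 30 of Ujumqin embryos, and all 4 called lower in Ujumqin embryos were among the 6 of Hulunbuir embryos. On total counts all 12 but only 1 of the 6 (PRPF8) kept their call in Hulunbuir embryos, and 28 of the 30 and all 4 in Ujumqin embryos. Another 6 members, LSM5, PRPF6, SF3B2, SNRPB, SRSF7 and SRSF9, were called higher in Hulunbuir embryos on total counts and not with TMM (adjusted p = 0.0247 to 0.0428), which made 18 higher there, beside 23.7% of all genes called higher and 14.7% lower on that scale. The share of higher calls among all calls in Hulunbuir embryos was 46.6% with TMM and 61.7% on total counts.

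Of the SNRP genes, 4 of 8 rose in Hulunbuir embryos and 8 of 8 in Ujumqin embryos. SNRPF, which encodes the F protein of the Sm ring (ENSOARG00000011853, Oar_v3.1 chromosome 3, 165245642 to 165253001, plus strand), had 362, 368 and 361 FPKM at day 25, against 195, 161 and 256 FPKM at day 16 in Hulunbuir embryos. In Ujumqin embryos SNRPF had 488, 603 and 585 FPKM at day 25, against 174, 157 and 222 FPKM at day 16. Every day 25 library was above every day 16 library in both breeds, and the log2 change was 0.70 ± 0.15 (SE, adjusted p = 0.0035) in Hulunbuir embryos and 1.75 ± 0.15 (SE, adjusted p = 5.4e-06) in Ujumqin embryos. SNRPC, the U1 protein that helps U1 grip the 5′ splice site, had 234, 277 and 252 FPKM at day 25, against 156, 101 and 124 FPKM at day 16 in Hulunbuir embryos. In Ujumqin embryos SNRPC had 315, 316 and 313 FPKM at day 25, against 122, 109.6 and 127 FPKM at day 16. The groups did not overlap in either breed, with log2 changes of 0.85 ± 0.15 (SE, adjusted p = 0.00109) in Hulunbuir embryos and 1.54 ± 0.15 (SE, adjusted p = 9.9e-06) in Ujumqin embryos. SNRPD3, another Sm ring gene, and SNRPB2, which encodes a U2 protein, rose in both breeds too. SNRPD3 changed by 0.66 ± 0.15 in Hulunbuir embryos and 1.49 ± 0.15 in Ujumqin embryos on the log2 scale, and SNRPB2 by 0.97 ± 0.16 in Hulunbuir and 1.52 ± 0.16 in Ujumqin embryos. The remaining SNRP genes rose in Ujumqin embryos and were not called in Hulunbuir embryos with TMM. Among them SNRPA, the RNA-binding protein of U1, was at 0.04 ± 0.16 in Hulunbuir and 1.05 ± 0.16 in Ujumqin embryos. The U2 gene SNRPA1 was at -0.10 ± 0.15 in Hulunbuir and 0.58 ± 0.16 in Ujumqin embryos. SNRPB was at 0.36 ± 0.14 in Hulunbuir (adjusted p = 0.0311 on total counts) and 0.80 ± 0.15 in Ujumqin embryos, and SNRPN at 0.07 ± 0.19 in Hulunbuir and 0.73 ± 0.19 in Ujumqin embryos.

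Of the 10 LSM genes, 6 rose and 1 fell in Hulunbuir embryos, and 8 rose and 1 fell in Ujumqin embryos. LSM2 to LSM8 form the ring on U6 in the nucleus, while LSM1 takes the place of LSM8 in the cytoplasmic ring that directs mRNA to decapping. LSM7 (ENSOARG00000014013, chromosome 5, 18802461 to 18806731, plus strand) had 283, 292 and 288 FPKM at day 25, against 217, 129.8 and 177 FPKM at day 16 in Hulunbuir embryos. In Ujumqin embryos LSM7 had 446, 477 and 452 FPKM at day 25, against 126, 102 and 143 FPKM at day 16. The groups were apart in both breeds, by 0.57 ± 0.16 (SE, adjusted p = 0.0141) on the log2 scale in Hulunbuir embryos and 2.04 ± 0.16 (SE, adjusted p = 3.8e-06) in Ujumqin embryos. LSM2 had 145, 155 and 158 FPKM at day 25, against 71.7, 45 and 74.8 FPKM at day 16 in Hulunbuir embryos. In Ujumqin embryos LSM2 had 164, 187 and 167 FPKM at day 25, against 49.4, 42.5 and 49.3 FPKM at day 16. LSM2 thus had all day 25 libraries above all day 16 libraries, with log2 changes of 1.12 ± 0.15 (SE, adjusted p = 2.5e-04) in Hulunbuir embryos and 2.02 ± 0.15 (SE, adjusted p = 3.0e-06) in Ujumqin embryos. LSM14B encodes an RNA-binding protein of cytoplasmic granules, known in mouse for storing mRNA in oocytes, and is not a ring subunit. LSM14B (ENSOARG00000014706, chromosome 13, 54364727 to 54376906, minus strand) had 52.1, 49.8 and 50.8 FPKM at day 25, against 28.5, 22.4 and 40.1 FPKM at day 16 in Hulunbuir embryos. In Ujumqin embryos LSM14B had 70.5, 66.4 and 64.1 FPKM at day 25, against 18.7, 16.1 and 21.2 FPKM at day 16. It rose by 0.62 ± 0.13 on the log2 scale in Hulunbuir embryos and by 1.98 ± 0.14 in Ujumqin embryos, while its paralog LSM14A was not called, at -0.25 ± 0.16 in Hulunbuir and -0.05 ± 0.16 in Ujumqin embryos. LSM12 was the 1 LSM gene called lower: it had 25.8, 22.8 and 30.2 FPKM at day 25, against 38.1, 30.2 and 39.6 FPKM at day 16 in Hulunbuir embryos. In Ujumqin embryos LSM12 had 15.9, 16 and 16.2 FPKM at day 25, against 36.2, 36.1 and 40.1 FPKM at day 16. LSM12 changed by -0.60 ± 0.15 (SE, adjusted p = 0.00745) on the log2 scale in Hulunbuir embryos, where the groups touched, and by -1.08 ± 0.15 (SE, adjusted p = 8.9e-05) in Ujumqin embryos, where they were apart. On total counts the Hulunbuir call of LSM12 was lost (adjusted p = 0.0706).

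LSM8, the subunit that marks the nuclear ring, and LSM1, which marks the cytoplasmic one, both rose. LSM8 changed by 0.49 ± 0.16 in Hulunbuir embryos and 1.46 ± 0.16 in Ujumqin embryos on the log2 scale, and LSM1 by 0.78 ± 0.16 in Hulunbuir and 0.77 ± 0.16 in Ujumqin embryos. LSM3 and LSM5 were called in Ujumqin embryos and not, with TMM, in Hulunbuir embryos. LSM5 was at 0.44 ± 0.17 in Hulunbuir (adjusted p = 0.0286 on total counts) and 1.14 ± 0.17 in Ujumqin embryos, and LSM3 at 0.20 ± 0.16 in Hulunbuir and 0.71 ± 0.16 in Ujumqin embryos. LSM10 rose by 1.13 ± 0.25 in Hulunbuir embryos and 0.87 ± 0.25 in Ujumqin embryos. The Hulunbuir call of LSM8 was lost in 5 of the 6 fits that left out 1 library (adjusted p = 0.055 to 0.0868, all but that without Hulunbuir day 16 replicate 2), and the Ujumqin call of LSM10 was lost without Ujumqin day 25 replicate 2 (adjusted p = 0.0606).

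In the SF3 family, which holds the U2 parts at the branch point, the members split. SF3B6, the small subunit that lies at the branch point adenosine, had 255, 273 and 275 FPKM at day 25, against 128, 114 and 181 FPKM at day 16 in Hulunbuir embryos. In Ujumqin embryos SF3B6 had 300.1, 368 and 377 FPKM at day 25, against 132, 127 and 141 FPKM at day 16. SF3B6 rose by 0.79 ± 0.14 (SE, adjusted p = 0.00147) on the log2 scale in Hulunbuir embryos and by 1.53 ± 0.14 (SE, adjusted p = 9.0e-06) in Ujumqin embryos, with no overlap in either. SF3B2 was at 0.20 ± 0.14 in Hulunbuir embryos, called only on total counts, and rose in Ujumqin embryos by 1.22 ± 0.14. SF3B3, a scaffold subunit of SF3B, had 67.7, 64.3 and 68.5 FPKM at day 25, against 100, 69.1 and 98.6 FPKM at day 16 in Hulunbuir embryos. In Ujumqin embryos SF3B3 had 45.9, 44.7 and 48.5 FPKM at day 25, against 64.6, 48.5 and 65.1 FPKM at day 16. The change of SF3B3 was -0.56 ± 0.14 (SE, adjusted p = 0.00765) in Hulunbuir embryos, a call lost on total counts (adjusted p = 0.0862), and -0.21 ± 0.14 (SE, adjusted p = 0.189) in Ujumqin embryos, where it was not called. SF3A1, SF3A2, SF3A3 and SF3B1, the branch point contact subunit, were called in neither breed. Their log2 changes lay between -0.47 ± 0.21 and 0.03 ± 0.16 in Hulunbuir embryos and between -0.04 ± 0.21 and 0.31 ± 0.17 in Ujumqin embryos.

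The PRPF genes went both ways. In Hulunbuir embryos 0 of 11 rose and 4 fell, and in Ujumqin embryos 6 rose and 3 fell. PRPF40B, which encodes a protein that bridges U1 and the branch point factors (ENSOARG00000018524, chromosome 3, 136450175 to 136464033, minus strand), had 29.1, 26.2 and 28.1 FPKM at day 25, against 13.1, 19 and 30.1 FPKM at day 16 in Hulunbuir embryos. In Ujumqin embryos PRPF40B had 36.7, 31.3 and 34.2 FPKM at day 25, against 6.32, 6.3 and 12.6 FPKM at day 16. The Hulunbuir groups overlapped, at 0.29 ± 0.27 (SE, adjusted p = 0.421) on the log2 scale, whereas the Ujumqin groups were far apart, at 2.17 ± 0.28 (SE, adjusted p = 6.5e-05). PRPF4B, a kinase of the tri-snRNP, had 21.4, 17.2 and 22.1 FPKM at day 25, against 24.1, 26.9 and 49 FPKM at day 16 in Hulunbuir embryos. In Ujumqin embryos PRPF4B had 13.4, 10.4 and 11.7 FPKM at day 25, against 25.8, 24.7 and 38.1 FPKM at day 16. Every day 25 library was below every day 16 library of its breed, with log2 changes of -0.84 ± 0.21 (SE, adjusted p = 0.00943) in Hulunbuir embryos and -1.18 ± 0.22 (SE, adjusted p = 6.8e-04) in Ujumqin embryos. PRPF4, a partner of PRPF3 in the tri-snRNP, changed by -0.63 ± 0.14 in Hulunbuir and -0.83 ± 0.14 in Ujumqin embryos. PRPF8, the protein at the catalytic centre, had 68.4, 68 and 65.5 FPKM at day 25, against 118, 76.3 and 105 FPKM at day 16 in Hulunbuir embryos. In Ujumqin embryos PRPF8 had 53, 49.3 and 47.3 FPKM at day 25, against 80.1, 55.3 and 72.6 FPKM at day 16. PRPF8 fell by 0.72 on the log2 scale in Hulunbuir embryos (adjusted p = 0.0041, and 0.033 on total counts) and was not called in Ujumqin embryos, at -0.34 ± 0.15 (SE, adjusted p = 0.0755). The Hulunbuir calls of PRPF4 and PRPF4B were lost on total counts (adjusted p = 0.0708 and 0.0601).

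The other PRPF genes that rose in Ujumqin embryos did so by less than PRPF40B. The tri-snRNP genes PRPF3, PRPF6 and PRPF31 were at -0.13 ± 0.11, 0.26 ± 0.15 and 0.16 ± 0.16 on the log2 scale in Hulunbuir embryos with TMM scaling, where none was called (PRPF6 was on total counts, adjusted p = 0.0247), and rose by 0.45 ± 0.11, 0.70 ± 0.15 and 0.54 ± 0.16 in Ujumqin embryos. PRPF31 lost its Ujumqin call without Ujumqin day 25 replicate 2 or 3 (adjusted p = 0.0521 and 0.0553). PRPF19, the ubiquitin ligase of the PRP19 complex, was at -0.18 ± 0.14 in Hulunbuir and 0.44 ± 0.14 in Ujumqin embryos, and the U1-associated PRPF39 at 0.06 ± 0.40 in Hulunbuir and 1.05 ± 0.40 in Ujumqin embryos. The Ujumqin calls of PRPF19 and PRPF39 were lost on total counts (adjusted p = 0.0664 and 0.0715), and without 1 library in 4 and 5 of the 6 such fits (adjusted p = 0.0575 to 0.129). PRPF38A, which acts in spliceosome activation, was called in neither breed, at -0.06 ± 0.13 in Hulunbuir and 0.29 ± 0.13 in Ujumqin embryos.

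Among the SR protein genes 1 of 7 rose in Hulunbuir embryos with TMM and 6 of 7 in Ujumqin embryos. SRSF7, which like SRSF3 links splicing to mRNA export, had 275, 270.0 and 259.7 FPKM at day 25, against 178, 148 and 231 FPKM at day 16 in Hulunbuir embryos. In Ujumqin embryos SRSF7 had 203, 204 and 195 FPKM at day 25, against 117, 92.4 and 157 FPKM at day 16. No day 16 library reached a day 25 library of its breed, and the log2 change was 0.39 ± 0.15 (SE, adjusted p = 0.0594) in Hulunbuir embryos, called only on total counts (adjusted p = 0.0428), and 0.87 ± 0.15 (SE, adjusted p = 5.3e-04) in Ujumqin embryos. SRSF9 had 215, 232 and 228 FPKM at day 25, against 204, 136 and 173 FPKM at day 16 in Hulunbuir embryos. In Ujumqin embryos SRSF9 had 247, 258 and 249 FPKM at day 25, against 132, 153 and 134 FPKM at day 16. SRSF9 was at 0.24 ± 0.14 in Hulunbuir embryos, called only on total counts (adjusted p = 0.04), and rose by 0.99 ± 0.14 in Ujumqin embryos. SRSF12, at low levels, was at 0.93 ± 0.38 in Hulunbuir embryos, not called, and rose by 1.57 ± 0.39 in Ujumqin embryos. SRSF6 rose in both breeds, by 0.60 ± 0.19 in Hulunbuir and 0.77 ± 0.19 in Ujumqin embryos, but its Hulunbuir call was lost in 4 of the 6 fits that left out 1 library (adjusted p = 0.0576 to 0.104, all but those without Hulunbuir day 25 replicate 2 or Hulunbuir day 16 replicate 3). SRSF3 and SRSF4 were not called in Hulunbuir embryos at 0.11 ± 0.14 and 0.25 ± 0.16, and rose in Ujumqin embryos by 0.72 ± 0.14 and 0.65 ± 0.16. SRSF11 was called in neither, at -0.15 ± 0.21 in Hulunbuir and 0.14 ± 0.21 in Ujumqin embryos. The call of a gene in 1 breed and not in the other is no test of a difference between breeds, which the interaction below gives.

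**Figure D2:**
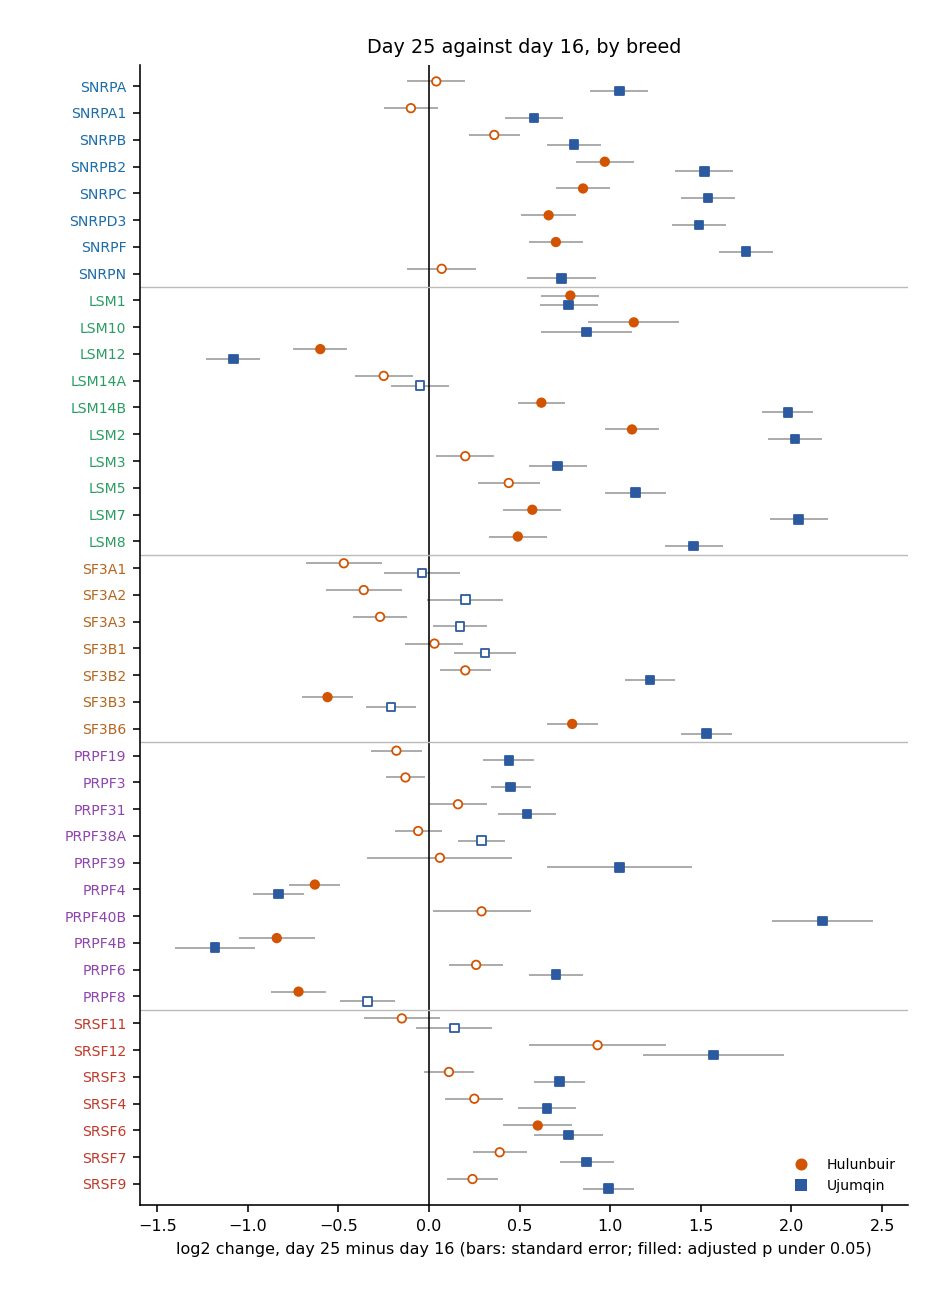
Log2 change between day 25 and day 16 (x axis) of each gene shown (y axis, label colour by family), in Hulunbuir (circles) and Ujumqin embryos (squares) from the fit over 12 libraries. Bars are standard errors and filled symbols are called; the squares reach 2.17 for PRPF40B, and most lie right of the circle of the same gene, while PRPF4, PRPF4B and LSM12 lie left of 0 in both breeds.

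The second comparison sets the short-tailed breed against the control breed at day 25. Of the 43 members 24 were called lower in Hulunbuir embryos than in Ujumqin embryos and 3 higher, beside 22.8% of all genes called lower and 23.3% called higher. The members' median log2 change was -0.294 and that of all genes 0.030. The counts depended on the scale: on total counts 11 members were lower and 9 higher, beside 10.2% and 41.5% of all genes. The members' median was then 0.021 and that of all genes 0.352. The share of higher calls among all calls was 80.3% in place of 50.6%. On both scales 11 members were lower and 3 higher. The 11 were LSM5, LSM7, LSM8 and LSM14B, the SF3B subunit genes SF3B2 and SF3B6, the SNRP genes SNRPB2, SNRPC, SNRPD3 and SNRPF, and PRPF40B. The 3 were PRPF4, PRPF4B and LSM12.

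By family, 6 of 8 SNRP genes, 8 of 10 LSM genes, 5 of 7 SF3 genes, 3 of 11 PRPF genes and 2 of 7 SRSF genes were lower in Hulunbuir embryos with TMM scaling. LSM7 had 283, 292 and 288 FPKM in Hulunbuir embryos, against 446, 477 and 452 FPKM in Ujumqin embryos. Its log2 change was -1.0 ± 0.08 (SE, adjusted p = 5.1e-05), and -0.68 on total counts, which is the scale of the FPKM. LSM8 had 104, 107 and 99.7 FPKM in Hulunbuir embryos, against 157, 164 and 175 FPKM in Ujumqin embryos. The breeds did not overlap for either ring subunit, and LSM8 changed by -1.0 ± 0.09 (SE, adjusted p = 1.1e-04). LSM5 had 101, 97.4 and 99.5 FPKM in Hulunbuir embryos, against 124, 139.7 and 148 FPKM in Ujumqin embryos. Its log2 change was -0.80 ± 0.11 (SE, adjusted p = 6.4e-04), again with no overlap. LSM14B had 52.1, 49.8 and 50.8 FPKM in Hulunbuir embryos, against 70.5, 66.4 and 64.1 FPKM in Ujumqin embryos, a log2 change of -0.72 ± 0.07 (SE, adjusted p = 1.1e-04). Among the Sm ring genes SNRPF had 362, 368 and 361 FPKM in Hulunbuir embryos, against 488, 603 and 585 FPKM in Ujumqin embryos. SNRPD3 had 321, 311 and 321 FPKM in Hulunbuir embryos, against 456, 501 and 488 FPKM in Ujumqin embryos. Each Hulunbuir library lay below each Ujumqin library for both genes, with log2 changes of -0.95 ± 0.11 (SE, adjusted p = 3.4e-04) for SNRPF and -0.93 ± 0.08 (SE, adjusted p = 9.7e-05) for SNRPD3. SNRPC of U1 and SNRPB2 of U2 were lower by the same test, at -0.64 ± 0.09 and -0.77 ± 0.10.

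SF3B2 (ENSOARG00000002125, chromosome 21, 43442985 to 43457756, plus strand) had 114, 106 and 114 FPKM in Hulunbuir embryos, against 143, 147 and 139.8 FPKM in Ujumqin embryos. SF3B6 had 255, 273 and 275 FPKM in Hulunbuir embryos, against 300.1, 368 and 377 FPKM in Ujumqin embryos. Both were lower in every Hulunbuir library, by -0.70 ± 0.08 (SE, adjusted p = 2.2e-04) for SF3B2 and -0.71 ± 0.12 (SE, adjusted p = 0.00177) for SF3B6. PRPF40B had 29.1, 26.2 and 28.1 FPKM in Hulunbuir embryos, against 36.7, 31.3 and 34.2 FPKM in Ujumqin embryos, a log2 change of -0.62 ± 0.07 (SE, adjusted p = 3.4e-04), and lost its call when all 12 libraries shared the spread (adjusted p = 0.118). In the other direction PRPF4 had 17.2, 18.4 and 18.2 FPKM in Hulunbuir embryos, against 10.8, 9.99 and 7.98 FPKM in Ujumqin embryos. PRPF4B (ENSOARG00000000557, chromosome 20, 49015023 to 49037888, minus strand) had 21.4, 17.2 and 22.1 FPKM in Hulunbuir embryos, against 13.4, 10.4 and 11.7 FPKM in Ujumqin embryos. Both were higher in every Hulunbuir library, by 0.58 ± 0.12 (SE, adjusted p = 0.00388) for PRPF4 and 0.45 ± 0.11 (SE, adjusted p = 0.0104) for PRPF4B, of which the second was not called over 12 libraries (adjusted p = 0.208). LSM12 had 25.8, 22.8 and 30.2 FPKM in Hulunbuir embryos, against 15.9, 16 and 16.2 FPKM in Ujumqin embryos, and its log2 change of 0.38 ± 0.14 (SE, adjusted p = 0.0484) lost its call under most alternatives, with adjusted p up to 0.195 without Hulunbuir day 25 replicate 3.

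A further 13 members were called lower with TMM scaling and not on total counts. LSM1, LSM2, LSM3, SNRPA1, SRSF3, SRSF9 and PRPF39 kept a negative sign on total counts, and SRSF9 had 215, 232 and 228 FPKM in Hulunbuir embryos, against 247, 258 and 249 FPKM in Ujumqin embryos. SRSF9 changed by -0.49 ± 0.08 with TMM and -0.16 on total counts. LSM14A, PRPF3, SF3A2, SF3A3, SF3B1 and SNRPA turned to a small positive value on total counts, between 0.01 and 0.09 on the log2 scale. Another 6 genes were called higher on total counts and not with TMM scaling, among them PRPF6, PRPF8, SF3A1, SF3B3 and SRSF7. SRSF7 had 275, 270.0 and 259.7 FPKM in Hulunbuir embryos, against 203, 204 and 195 FPKM in Ujumqin embryos. SF3B3 had 67.7, 64.3 and 68.5 FPKM in Hulunbuir embryos, against 45.9, 44.7 and 48.5 FPKM in Ujumqin embryos. For both, the Hulunbuir FPKM were above all Ujumqin FPKM, but the log2 change with TMM was 0.09 ± 0.07 (SE, adjusted p = 0.326) for SRSF7 and 0.20 ± 0.08 (SE, adjusted p = 0.0657) for SF3B3. PRPF6 was -0.10 with TMM and 0.22 on total counts. Neither scale called LSM10, PRPF19, PRPF31, PRPF38A, SNRPB, SNRPN, SRSF4, SRSF6, SRSF11 or SRSF12. Leaving out 1 library at a time gave 18 to 29 members lower and 2 or 3 higher, and 11 of the 27 calls held under every alternative.

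**Figure D3:**
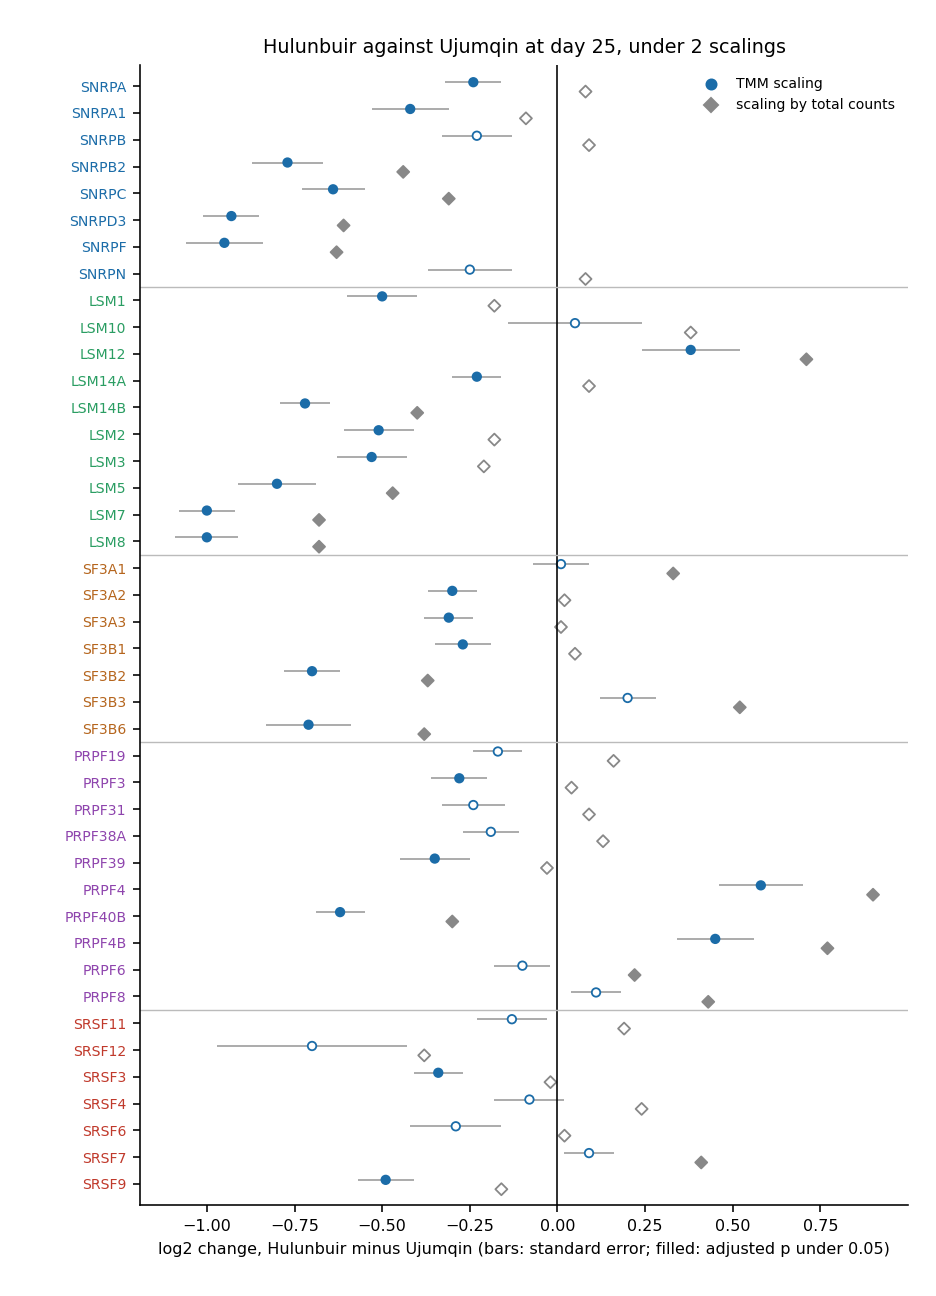
Log2 change of Hulunbuir over Ujumqin embryos at day 25 (x axis) for each gene shown (y axis), with TMM scaling (circles, bars are standard errors) and on total counts (diamonds). Filled symbols are called; LSM7 and LSM8 lie lowest at -1.0 with TMM, and each diamond lies right of its circle by about the shift of the whole transcriptome.

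At day 16 no member was called between the breeds: 0 were higher and 0 lower in Hulunbuir embryos, beside 0.0137% of all genes called higher and 0.00687% called lower. At an unadjusted p under 0.05 there were 5 members and 2955 genes. DESeq2 called 2 members higher, beside 692 genes higher and 916 lower over all genes. The members' median log2 change was 0.165, where that of all genes was 0.010. With the replicate number as a block, 0 members were called, while over all genes 131 were called higher and 164 lower. Same-numbered day 16 libraries deviated together, though the labels name no pairing. When the day 25 libraries shared the estimate of the spread, 5 members were higher and 1 lower, beside 1235 genes higher and 1224 lower. The 5 members at an unadjusted p under 0.05 were PRPF40B, SNRPA, LSM14B, LSM1 and SF3B3.

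PRPF40B had 13.1, 19 and 30.1 FPKM in Hulunbuir embryos, against 6.32, 6.3 and 12.6 FPKM in Ujumqin embryos. The groups did not overlap, and the log2 change was 1.22 ± 0.36 (SE, adjusted p = 0.153). SNRPA had 172, 107 and 140.4 FPKM in Hulunbuir embryos, against 89.4, 65.5 and 83.7 FPKM in Ujumqin embryos. SNRPA was likewise higher in each Hulunbuir library, by 0.73 ± 0.22 (SE, adjusted p = 0.158). LSM14B had 28.5, 22.4 and 40.1 FPKM in Hulunbuir embryos, against 18.7, 16.1 and 21.2 FPKM in Ujumqin embryos, a log2 change of 0.60 ± 0.21 (SE, adjusted p = 0.184). LSM1 was the 1 of the 5 with a negative value, at -0.56 ± 0.23 (SE, adjusted p = 0.235), and SF3B3 was at 0.50 ± 0.21 (SE, adjusted p = 0.239). By family the median log2 change was 0.11 for the SNRP genes, -0.07 for the LSM genes, 0.21 for the SF3 genes, 0.30 for the PRPF genes and 0.21 for the SRSF genes. Standard errors of the members at this age ran from 0.17 for PRPF3 to 0.51 for PRPF39, so that changes of the size called at day 25 were mostly not detectable.

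Whether the change with age differed between the breeds was tested as an interaction (the change in Hulunbuir embryos minus that in Ujumqin embryos). Of 43 members 13 had a lower and 0 a higher interaction, beside 10.3% of all genes called lower and 8.89% called higher. At an unadjusted p under 0.05 there were 22 members, beside 5156 of the 14595 genes tested. The median over the members was -0.552 and over all genes -0.032, and 37 of the 43 values were negative. On total counts 5 members were lower (LSM7, LSM8, LSM14B, PRPF40B and SF3B2) and 1 higher (LSM12, at 0.76). Over all genes on that scale 4.95% were called lower and 13.6% higher, and 73.4% of all calls were higher in place of 46.3%. The medians were then -0.275 for the members and 0.250 for all genes.

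PRPF40B had the largest called interaction among the members, at -1.89 ± 0.39 (SE, adjusted p = 0.0085). LSM7 followed with -1.46 ± 0.22 (SE, adjusted p = 0.00233), and LSM14B with -1.37 ± 0.19 (SE, adjusted p = 0.00142). For these genes the rise with age in Ujumqin embryos exceeded that in Hulunbuir embryos. LSM14B averaged 50.9 FPKM in Hulunbuir and 67 FPKM in Ujumqin embryos at day 25, and 30.3 FPKM in Hulunbuir and 18.7 FPKM in Ujumqin embryos at day 16. For LSM14B the breeds thus stood in opposite order at the 2 ages, with Hulunbuir libraries below Ujumqin libraries at day 25 and above them at day 16, though the day 16 difference was not called. PRPF40B libraries had the same order, also without a call at day 16, while for LSM7 the breeds overlapped at day 16. Next by size of the interaction were SNRPF, SF3B2 and SNRPA, with -1.05 ± 0.21 (SE, adjusted p = 0.00695), -1.03 ± 0.19 (SE, adjusted p = 0.00591) and -1.01 ± 0.22 (SE, adjusted p = 0.011). On total counts SNRPF and SNRPA lost their calls (adjusted p = 0.0571 and 0.0561), and SF3B2 kept its call. The others with a call were LSM2, LSM8, PRPF3, SF3B6, SRSF9, SNRPC and SNRPD3, between -0.97 ± 0.22 for LSM8 and -0.58 ± 0.15 for PRPF3. SNRPC lost its call with the replicate block (adjusted p = 0.0573) and in most fits that left out 1 library (adjusted p = 0.0536 to 0.11), and PRPF3, SF3B6, SRSF9, SNRPD3 and LSM2 lost theirs without at least 1 library (adjusted p = 0.0512 to 0.0943). By family 4 of 10 LSM genes, 4 of 8 SNRP genes, 2 of 7 SF3 genes, 2 of 11 PRPF genes and 1 of 7 SRSF genes had a call. The interaction uses the libraries of the age and breed comparisons and is no separate evidence for them. Its count fell to 7 without Ujumqin day 25 replicate 2 and to 8 without Ujumqin day 25 replicate 3 or Hulunbuir day 25 replicate 1 or 2.

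**Figure D4:**
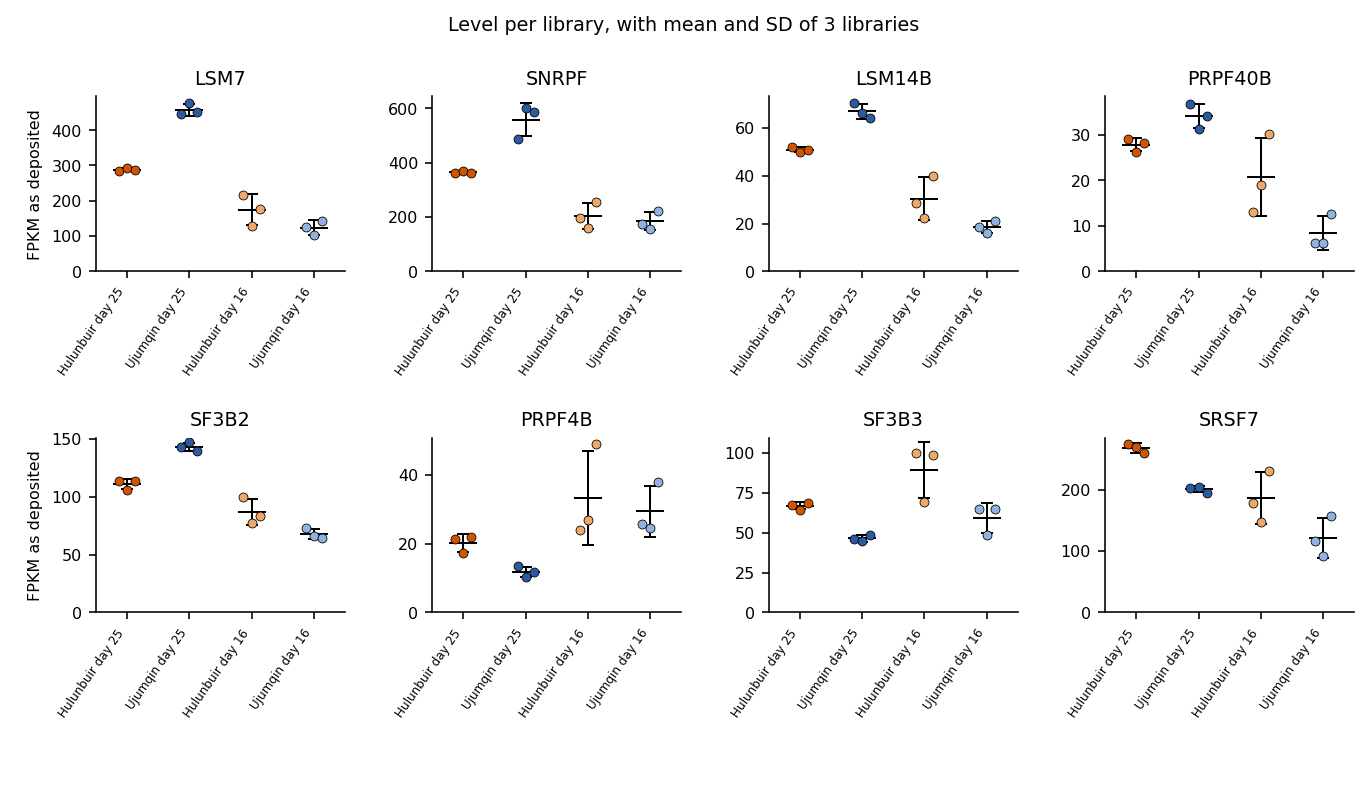
FPKM as deposited (y axis, from 0) of 8 genes in each library (points) of the 4 groups, with the mean and SD of 3 libraries. LSM7, SNRPF, LSM14B, PRPF40B and SF3B2 are highest in Ujumqin day 25 libraries, PRPF4B is lowest there, and SF3B3 and SRSF7 are lower in Ujumqin than in Hulunbuir libraries at day 25.

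The members also differ in length, and their changes ran with it. The length each gene was counted over, implied by its counts and FPKM, was 296 bases for LSM5 at the short end and 9066 bases for PRPF8 at the long end. Across the 43 members Spearman's rho between that length and the log2 change with age was -0.54 in Hulunbuir embryos and -0.43 in Ujumqin embryos, while across all genes with a length it was -0.25 and -0.18. For Hulunbuir over Ujumqin it was 0.43 at day 25 and 0.39 at day 16 across the members, and 0.12 and 0.11 across all genes. The 14 shortest members (up to 693 bases) had a median log2 change with age of 0.68 in Hulunbuir embryos and 1.48 in Ujumqin embryos, and the 14 longest (from 2175 bases) had -0.05 in Hulunbuir and 0.44 in Ujumqin embryos. Among all genes with a length, the limits on length differed from those of the members. The 4725 shortest (up to 1174 bases) had a median of 0.30 in Hulunbuir and 0.40 in Ujumqin embryos. The 4726 longest (above 2388 bases) had -0.32 in Hulunbuir and -0.34 in Ujumqin embryos. PRPF40B, LSM14B, SNRPB2 and SF3B2 are among the 14 longest members, at 2911, 6523, 4565 and 4422 bases, and had the largest rises of those 14 with age in Ujumqin embryos, by 2.17 ± 0.28, 1.98 ± 0.14, 1.52 ± 0.16 and 1.22 ± 0.14. For the interaction rho was 0.23 across the members and 0.01 across all genes. These values describe 1 set of libraries that all genes share, genes are not independent replicates, and the part of length in the results was not tested.

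**Figure D5:**
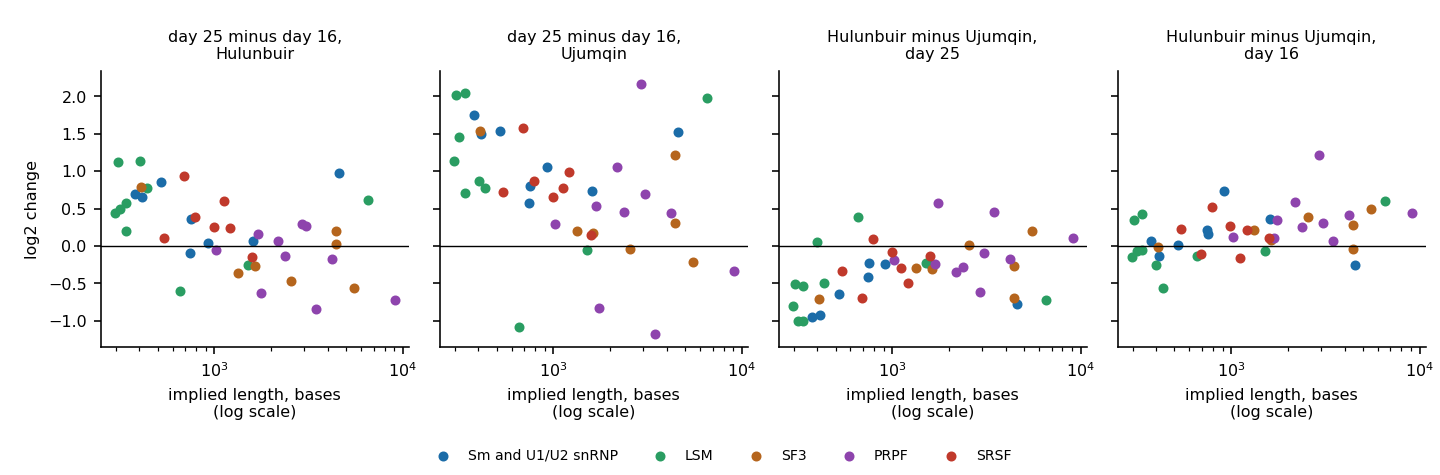
Log2 change (y axis) against the implied length of each gene in bases (x axis, log scale) in 4 comparisons, with 1 point per gene shown, coloured by family. Changes with age fall from the short LSM and SNRP genes to the long PRPF genes, and the Hulunbuir over Ujumqin change at day 25 runs the other way, with PRPF40B, LSM14B, SNRPB2 and SF3B2 as long genes that lie with the short ones.

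Genes that work with the members were read the same way, and their counts stand beside the shares over all genes. With age those were 18.9% higher and 21.6% lower in Hulunbuir embryos (23.7% and 14.7% on total counts), and 30.7% higher and 32.9% lower in Ujumqin embryos (27.5% and 34.4% on total counts). Between the breeds at day 25 they were 23.3% higher and 22.8% lower (41.5% and 10.2% on total counts). Of 18 other U snRNP proteins 8 rose and 3 fell with age in Hulunbuir embryos (8 and 0 on total counts) and 12 rose and 4 fell in Ujumqin embryos (11 and 4 on total counts). With TMM, 4 of them stood higher and 10 lower in Hulunbuir than in Ujumqin embryos at day 25, against 6 and 5 on total counts. SNRNP48, a protein of the minor spliceosome, averaged 25.7 FPKM in Hulunbuir and 44.1 FPKM in Ujumqin embryos at day 25 (log2 change -1.11 ± 0.13, adjusted p = 3.7e-04), and SNRNP200, the helicase that unwinds U4 from U6, averaged 74 FPKM in Hulunbuir and 40.4 FPKM in Ujumqin embryos (0.55 ± 0.07, adjusted p = 5.3e-04). Of 16 branch point and 3′ splice site factors 6 rose and 1 fell with age in Hulunbuir embryos (7 and 0 on total counts) and 10 rose and 2 fell in Ujumqin embryos (8 and 1 on total counts). With TMM, 3 of them stood higher and 7 lower in Hulunbuir embryos at day 25, a balance that turned to 7 and 3 on total counts. U2AF1, which binds the 3′ splice site, averaged 316 FPKM in Hulunbuir and 412 FPKM in Ujumqin embryos at day 25 (-0.71 ± 0.08, adjusted p = 2.0e-04). Of 22 PRP19 complex and catalytic factors 3 rose and 1 fell in Hulunbuir embryos (5 and 1 on total counts) and 10 rose and 6 fell in Ujumqin embryos (9 and 7 on total counts). With TMM, 5 of them stood higher and 9 lower in Hulunbuir embryos at day 25, against 10 and 1 on total counts. CWC15 of this set rose in both breeds, by 1.06 ± 0.11 in Hulunbuir embryos (adjusted p = 8.0e-05) and 1.54 ± 0.11 in Ujumqin embryos (adjusted p = 2.9e-06).

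Of 18 SR protein kinases, import and SR-related genes 1 rose and 6 fell with age in Hulunbuir embryos (2 and 4 on total counts) and 10 rose and 5 fell in Ujumqin embryos (9 and 5 on total counts). With TMM, 2 of them stood higher and 8 lower in Hulunbuir embryos at day 25, against 5 and 1 on total counts. SRPK1, a kinase that phosphorylates SR proteins, averaged 12.1 FPKM in Hulunbuir and 5.89 FPKM in Ujumqin embryos at day 25 (0.71 ± 0.11, adjusted p = 9.3e-04). It fell with age by 1.11 in Hulunbuir embryos and by 1.56 in Ujumqin embryos on the log2 scale. CLK4, another such kinase, rose by 2.20 ± 0.35 in Ujumqin embryos (adjusted p = 2.7e-04). Of 23 hnRNP entries (22 symbols) 2 rose and 2 fell in Hulunbuir embryos (3 and 2 on total counts) and 13 rose and 3 fell in Ujumqin embryos (10 and 3 on total counts). With TMM, 0 of them stood higher and 10 lower in Hulunbuir embryos at day 25, against 8 and 7 on total counts. HNRNPD, which binds AU-rich RNA, averaged 368 FPKM in Hulunbuir and 528 FPKM in Ujumqin embryos at day 25 (-0.85 ± 0.07, adjusted p = 7.6e-05). Of 15 SMN complex and assembly genes, which load Sm rings on snRNA, 2 rose and 3 fell in Hulunbuir embryos (2 and 1 on total counts) and 5 rose and 3 fell in Ujumqin embryos (4 and 4 on total counts). With TMM, 4 of them stood higher and 5 lower in Hulunbuir embryos at day 25, against 7 and 0 on total counts. GEMIN6 rose by 0.80 ± 0.15 in Hulunbuir and 1.36 ± 0.16 in Ujumqin embryos, and GEMIN5 fell, by 0.91 in Hulunbuir and by 1.11 in Ujumqin embryos.

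Of 9 decapping genes that act with the cytoplasmic LSM ring 1 rose and 6 fell with age in Hulunbuir embryos, and 2 rose and 5 fell in Ujumqin embryos. On total counts 1 rose and 3 fell in Hulunbuir embryos, and 2 rose and 5 fell in Ujumqin embryos. DCP1A averaged 3.19 FPKM at day 25 and 7.25 FPKM at day 16 in Hulunbuir embryos (-1.28 ± 0.28, adjusted p = 0.00445), and 2.33 FPKM at day 25 and 9.31 FPKM at day 16 in Ujumqin embryos (-1.87 ± 0.29, adjusted p = 2.1e-04), whereas DCP1B rose by 0.99 ± 0.17 in Hulunbuir embryos and by 1.70 ± 0.17 in Ujumqin embryos. Between the breeds at day 25, EDC3 was higher in Hulunbuir embryos on both scales, and DDX6 was lower with TMM, at -0.28, and not called at 0.04 on total counts. Of 8 histone processing genes that act with LSM10, 1 rose and 3 fell in each breed (1 and 2 in Hulunbuir and 0 and 3 in Ujumqin embryos on total counts). At day 25, 1 of them was higher and 1 lower in Hulunbuir embryos with TMM, and 5 and 0 on total counts. Of 20 tissue-restricted splicing regulators 7 rose and 8 fell in Hulunbuir embryos (6 and 7 on total counts) and 6 rose and 13 fell in Ujumqin embryos (6 and 13 on total counts), and 8 were higher and 2 lower in Hulunbuir embryos at day 25 (13 and 1 on total counts). The neuronal gene ELAVL3 rose by 5.58 ± 0.65 in Hulunbuir embryos and 7.53 ± 0.73 in Ujumqin embryos, and ESRP1, the epithelial splicing regulator, fell by 2.24 in Hulunbuir and by 2.37 in Ujumqin embryos. Of 25 cell cycle genes 1 rose and 2 fell in Hulunbuir embryos (2 and 0 on total counts) and 7 rose and 5 fell in Ujumqin embryos (4 and 6 on total counts), and 9 were higher and 0 lower in Hulunbuir embryos at day 25 (20 and 0 on total counts). At day 16 none of these lists held a gene called between the breeds by this fit.

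RefSeq lists 15 further sheep symbols of these families, of which 8 were found in the table by their NCBI gene number and the others were not analysed here. They were kept apart from the 43 because the table gives them no symbol. Of the 8, 3 rose and 1 fell with age in Hulunbuir embryos (4 and 0 on total counts) and 6 rose and 1 fell in Ujumqin embryos (5 and 1 on total counts). With TMM, 0 of them stood higher and 5 lower in Hulunbuir embryos at day 25, against 2 and 3 on total counts. SNRPD2, an Sm ring gene, averaged 444 ± 25.7 FPKM in Hulunbuir and 788 ± 75.1 FPKM in Ujumqin embryos at day 25, and 257 ± 46 FPKM in Hulunbuir and 213 ± 13.4 FPKM in Ujumqin embryos at day 16 (SD, n = 3 each). Its log2 change was -1.16 for Hulunbuir over Ujumqin at day 25 (adjusted p = 1.3e-04), 0.64 with age in Hulunbuir embryos (adjusted p = 0.00444) and 2.03 in Ujumqin embryos (adjusted p = 2.3e-06). LSM6, a subunit of both LSM rings, averaged 130.0 ± 4.88 FPKM in Hulunbuir and 187 ± 17.9 FPKM in Ujumqin embryos at day 25 (log2 change -0.85, adjusted p = 5.8e-04). SRSF1, the founding SR protein, was the 1 of the 8 that fell with age, by 0.74 in Hulunbuir embryos and by 0.59 in Ujumqin embryos on the log2 scale (adjusted p = 0.013 and 0.0226), and its Hulunbuir call was lost on total counts.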

How the data were processed

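Bulk RNA-seq of 12 sheep embryo libraries was analysed from 1 deposited table of 26247 genes. RNA was extracted with TRIzol and made into libraries by a standard Illumina procedure, per the labels' protocols. Per the submitters' processing notes, cutadapt 1.9, FastQC and the Oar_v3.1 genome were used. Aligner, counter and strand setting: not given in the sources used here. Per the file headers, the authors deposited a count and an FPKM value per gene and library. The deposited count columns hold whole numbers and are not scaled. All 46 low counts checked (below 6) lay 0 to 1 above the value the FPKM imply, so the counts may be estimates rounded up. The deposited FPKM follow total counts.

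Genes with at least 1 FPKM in at least 3 libraries (14595) were tested with edgeR 4.0.16 in R 4.3.3 (TMM, quasi-likelihood, Benjamini-Hochberg over all genes), after tests on simulated data. Each SE was derived from the F statistic (absolute log2 change over its root). DESeq2 1.42.0, other scalings, no filter, a replicate block, other libraries in the fit and each library left out were alternatives. Same-numbered libraries of the breeds deviated together at day 16 (r = 0.144, 0.293 and 0.371), but the labels do not say that the numbers mark a pairing. Members, gene lists and tests were chosen with earlier results of these data known. Named by rule were, per family and comparison, the 3 called members with the largest change and the uncalled member with the highest level, the 8 smallest interaction p-values, and the 3 highest and 3 lowest levels. Some of these are given by change alone. Tissue lists (erythroid, yolk sac and liver, trophoblast, endometrial, leukocyte, neural, heart and muscle) are given as summed levels or counts, and lists of partner genes as counts with up to 2 named genes per direction. Depth was 30464606 to 55455815 counts per library, and no genome sequence was used. RefSeq (ARS-UI_Ramb_v3.0) gave gene names only. Some items are counted in the totals but not reported here by name or drawn in the figures.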

Additional observations from a re-analysis of the deposited data

Results flagged for a closer look

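In 13 members the change with age differed between the breeds by the interaction test (edgeR, adjusted p under 0.05), each time with a lower value in Hulunbuir than in Ujumqin embryos, where all 13 rose. The interaction on the log2 scale was -1.89 for PRPF40B, -1.46 for LSM7, -1.37 for LSM14B, -1.05 for SNRPF, -1.03 for SF3B2, -1.01 for SNRPA, -0.97 for LSM8, -0.89 for LSM2, -0.83 for SNRPD3, -0.74 for SF3B6, -0.74 for SRSF9, -0.69 for SNRPC and -0.58 for PRPF3. LSM7, LSM8, LSM14B, PRPF40B and SF3B2 kept the call on total counts and under every other alternative tried. Over all genes 8.89% were called with a positive interaction and 10.3% with a negative one. Some marker lists moved with the same libraries. Of the erythroid list, 17 of its 18 genes tested were called positive (median 5.87 on the log2 scale over the 18). Of 24 yolk sac, endoderm and liver genes 16 were called positive and 1 negative (median 3.85). Of 12 heart and skeletal muscle genes 0 were called positive and 4 negative (median -1.36). Other lists moved little: 0 of 14 neural genes were called positive and 1 negative, and 1 and 0 of 12 trophoblast genes. It was 1 and 1 of 8 leukocyte genes, and 0 and 1 of 8 endometrial genes. The part of these tissues in the members' values was not tested.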

How the results depend on the processing

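On total counts in place of TMM, Hulunbuir over Ujumqin at day 25 had 9 members higher and 11 lower, day 25 over day 16 in Hulunbuir embryos had 18 higher and 1 lower, and the interaction had 1 higher and 5 lower. Over all genes that scale called 41.5% higher and 10.2% lower between the breeds at day 25. It called 23.7% and 14.7% with age in Hulunbuir embryos, and 13.6% and 4.95% for the interaction. Of the members called on either scale between the breeds at day 25, the log2 change turned positive for LSM14A (0.09), PRPF3 (0.04), PRPF6 (0.22), SF3A2 (0.02), SF3A3 (0.01), SF3B1 (0.05) and SNRPA (0.08). With all 12 libraries in the fit, the breeds differed by 1 member higher and 14 lower at day 25. Over all genes that fit called 1150 higher and 1290 lower, against 3398 and 3320 in the main fit. At day 16 it gave 5 members higher and 1 lower, beside 1235 and 1224 genes. DESeq2 gave 2 members higher at day 16, beside 692 genes higher and 916 lower. Leaving out 1 library at a time gave, for members higher and lower, 2 to 3 and 18 to 29 between breeds at day 25, 0 and 0 at day 16, 10 to 14 and 6 to 7 with age in Hulunbuir embryos, 26 to 29 and 4 to 5 in Ujumqin embryos, and 0 and 7 to 17 for the interaction. Counts over all genes are not given here for the fits that left out 1 library. The replicate block gave 2 members higher and 25 lower at day 25, 13 and 6 with age in Hulunbuir embryos, 30 and 4 in Ujumqin embryos and 0 and 12 for the interaction. Over all genes the block called 3304 higher and 3182 lower at day 25, and 1225 and 1401 for the interaction. With age it called 2814 and 3042 genes in Hulunbuir embryos, and 4527 and 4696 in Ujumqin embryos. Outside the breed comparison at day 16 same-numbered libraries did not deviate together (r from -0.0539 to 0.0791). Calls held under every alternative for 11 of 27 members between breeds at day 25, 11 of 18 with age in Hulunbuir embryos, 30 of 34 in Ujumqin embryos and 5 of 13 for the interaction. The causes were not tested. Each member had at least 69 counts in every library.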
